A study of Mus musculus with 6 samples.

Results

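The genes described here carry pyruvate into the mitochondrion and through the tricarboxylic acid (TCA) cycle. They comprise the mitochondrial pyruvate carrier, the pyruvate dehydrogenase complex with its kinases and phosphatases, pyruvate carboxylase, the cycle enzymes, and 3 enzymes of the malate-aspartate shuttle. They were chosen by function, as 34 named genes whose Ensembl identifiers were looked up in GENCODE M21. All 34 were among the 54532 genes of the deposited table, and all 34 were among the 14715 genes with enough counts to be tested. Expression was measured by RNA sequencing of quadriceps, a thigh muscle, from mouse pups 10 days old that were kept on chow. There were 3 libraries from pups labelled Myf5Cre-Pcyt2 and 3 from controls of genotype Pcyt2 flox/flox, whose Pcyt2 gene carries the sites that Cre recombines.

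Pcyt2 encodes the enzyme that makes CDP-ethanolamine for phosphatidylethanolamine synthesis, and Myf5 is a myogenic regulator whose Cre allele acts in muscle precursors and their progeny. The controls are not labelled as carrying Cre, so loss of Pcyt2 and presence of the Cre allele cannot be told apart. The labels do not say which cells of the muscle the allele reached, adipocytes included, or whether pups came from separate litters. Replicate 3 of each group was male and the others were female, as read from sex-linked genes.

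Pyruvate made by glycolysis enters the mitochondrial matrix through a carrier of paired subunits, and the pyruvate dehydrogenase complex turns it into acetyl-CoA. Kinases switch that complex off by phosphorylation and phosphatases switch it on again. Citrate synthase joins acetyl-CoA to oxaloacetate, and the cycle then returns to oxaloacetate while it reduces NAD+ and FAD for the respiratory chain. Oxidative muscle fibres are rich in these enzymes, and the malate-aspartate shuttle moves the electrons of cytosolic NADH inward.

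Library totals lay between 17775898 and 20446920 counts, and between 20921 and 23122 genes had a count. Levels are given as CPM, the usual normalised count relative to the library total, here scaled by TMM factors, which lay between 0.853 and 1.12 and were above 1 in all 3 Myf5Cre-Pcyt2 libraries and below 1 in all 3 controls. Pcyt2 had 280, 328 and 272 counts in Myf5Cre-Pcyt2 muscle, against 353, 277 and 277 counts in control muscle. Relative to control this was a log2 fold change of −0.28 with an SE of 0.11, which did not pass the threshold (edgeR's quasi-likelihood test, Benjamini-Hochberg adjusted p = 0.0944). A count of whole-gene reads does not show whether an excised part of the gene was missing from the transcript.

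Most of the 34 genes were lower in Myf5Cre-Pcyt2 muscle. Of the 34, 19 fell, Pdk3 rose, and 14 did not pass an adjusted p of 0.05 in edgeR's quasi-likelihood test, fitted over all 14715 genes. Among all tested genes 9.59% fell and 9.02% rose. The median log2 fold change of the 34 genes, Myf5Cre-Pcyt2 over control, was −0.39, against 0.00 over all tested genes, and 31 of the 34 fold changes were negative. The 19 genes that fell stood at 65.1% to 80.6% of their control level, so each change was modest. In 27 of the 34 genes all 3 Myf5Cre-Pcyt2 libraries lay below all 3 controls, against 19.2% of all tested genes; in Pdk3 and Idh2 they lay above all 3 controls, against 19.9%; and in Mpc1, Pdk1, Pdk4, Pdp1 and Pcx the groups overlapped. In bulk muscle, fewer cells of a type and less RNA per cell cannot be told apart.

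The count of 19 rested partly on single libraries. It became 6 when Myf5Cre-Pcyt2 replicate 2 was left out, 10 when replicate 3 of the same group was, and 12 when control replicate 2 was. The share of all tested genes that fell shrank with it, to 2.85%, 4.31% and 4.66% in these fits, against 9.59% with all 6 libraries. The median of the 34 genes stayed between −0.43 and −0.34 whichever library was left out. Scaling by library size alone moved the median of all genes up by 0.21 on the log2 scale, and then 7 of the 34 genes fell and Pdk3 and Idh2 rose, with 86.6% of all called genes higher against 48.5% under TMM. Changes are therefore given relative to TMM.

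**Figure D1:**
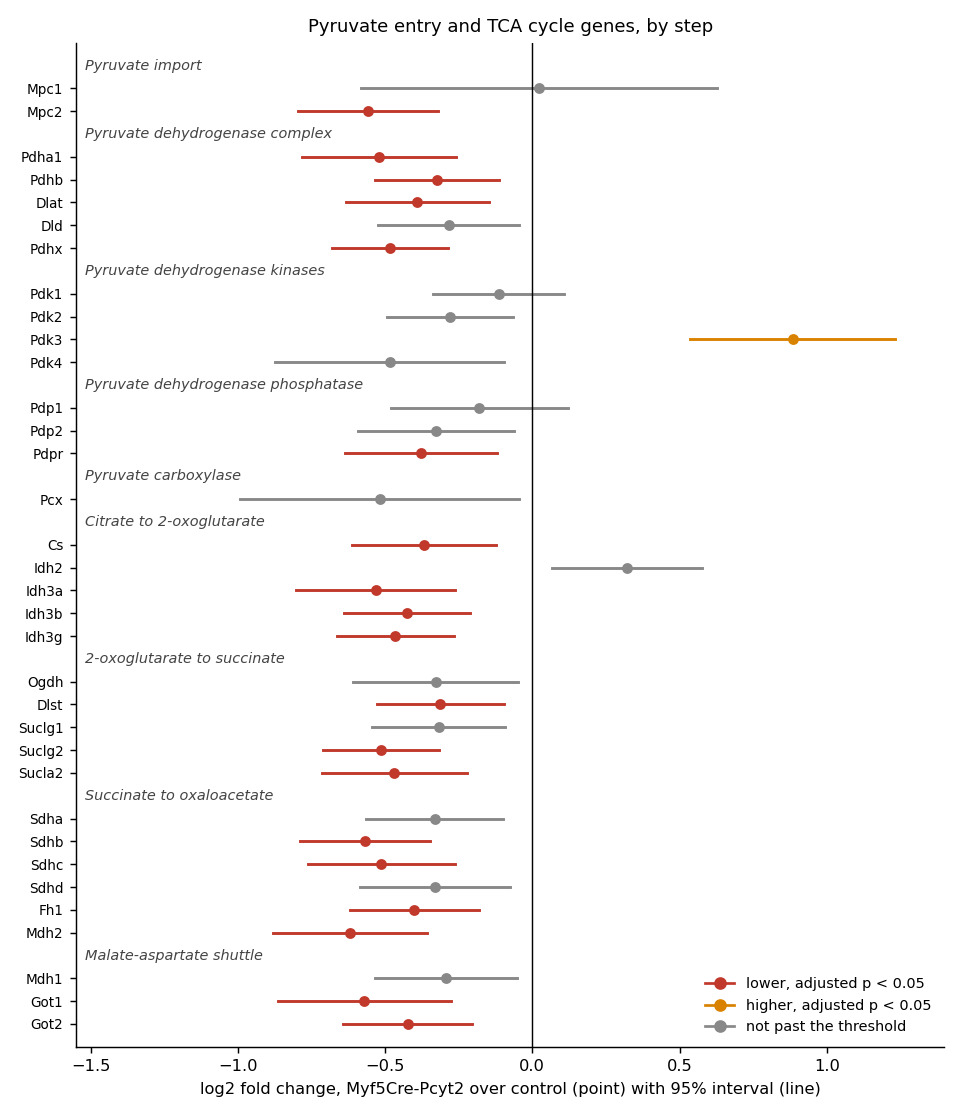
Log2 fold changes (x axis, Myf5Cre-Pcyt2 over control) of the 34 genes, grouped by step, with points for the estimate and lines for its 95% interval from 3 libraries a group. The 19 genes in red fell, Pdk3 in orange rose, and the 14 in grey did not pass an adjusted p of 0.05.

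The carrier's subunits differed in level and in change. Mpc2 had 144, 116 and 123 CPM in Myf5Cre-Pcyt2 libraries, against 172, 185 and 206 CPM in controls. The groups did not overlap, and Mpc2 fell by 0.56 on the log2 scale, with an SE of 0.11 (adjusted p = 0.00817, edgeR). Mpc1, its partner in the carrier, had 9.98, 7.38 and 5.04 CPM in Myf5Cre-Pcyt2 libraries, against 9.21, 4.64 and 8.05 CPM in controls. These overlapped throughout, and the fold change of 0.02 had a 95% interval of −0.58 to 0.63. In Mpc1, 11.03% of its 50-base exon words also occur in other genes, among them the processed pseudogene Mpc1-ps, which itself had 37 to 83 counts per library. No source used here tells how reads that map to several places were counted, so the low level of Mpc1 is uncertain.

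In the pyruvate dehydrogenase complex, 4 of the 5 subunit genes fell. Pdha1, the X-linked alpha subunit of the E1 enzyme and the site of regulatory phosphorylation, had 664, 551 and 683 CPM in Myf5Cre-Pcyt2 libraries, against 846, 984 and 892 CPM in controls. Replicate 2 was the lowest of the Myf5Cre-Pcyt2 libraries and the highest of the controls, and Pdha1 fell by 0.52 on the log2 scale (SE 0.12, adjusted p = 0.0153, edgeR). Pdhx, the protein that anchors the E3 enzyme to the core, had 84.5, 82.0 and 89.2 CPM in Myf5Cre-Pcyt2 libraries, against 109, 129 and 119.7 CPM in controls (−0.48 ± 0.09 SE, adjusted p = 0.00697, edgeR). Both groups were tight and well apart. Pdhb, the beta subunit of E1, and Dlat, the acetyltransferase core E2, fell with −0.32 ± 0.10 and −0.39 ± 0.11 (SE, adjusted p = 0.0387 and 0.0329, edgeR). Dld is the E3 dehydrogenase, shared with the 2-oxoglutarate and branched-chain ketoacid complexes. It averaged 380.4 ± 34.7 CPM in Myf5Cre-Pcyt2 muscle and 463 ± 39.4 CPM in control muscle (SD, n = 3 each), and its fold change of −0.28 ± 0.11 (SE) did not pass (adjusted p = 0.0903, edgeR). In Pdhb, 10.9% of its exon words also occur in other genes, among them the pseudogene Gm6123, which had 10 to 28 counts per library. The calls of Pdhb and Dlat were lost in 7 and 6 of the 17 alternative settings.

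Of the 4 pyruvate dehydrogenase kinases, Pdk3 rose and the others did not pass. Pdk3 had 8.6, 11.3 and 9.06 CPM in Myf5Cre-Pcyt2 libraries, against 4.82, 4.93 and 5.97 CPM in controls. Every Myf5Cre-Pcyt2 value lay above every control value, and the gene rose by 0.88 on the log2 scale (SE 0.16, adjusted p = 0.00603, edgeR), a call that held in all 17 alternatives (adjusted p up to 0.0348). Pdk3 remained a minor kinase transcript, at 3.77 CPM per kilobase of exon in Myf5Cre-Pcyt2 muscle and 2.05 in control muscle. By count it made up 0.804%, 1.08% and 0.737% of the 4 kinases in Myf5Cre-Pcyt2 libraries, against 0.383%, 0.288% and 0.437% in controls, a share that was looked at after the rise was known.

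Pdk4, the kinase induced by fasting and by fatty acids, and Pdk2 were the abundant kinases. Pdk4 had 518, 522 and 696 CPM in Myf5Cre-Pcyt2 libraries, against 654, 1032 and 743 CPM in controls. Myf5Cre-Pcyt2 replicate 3 lay above control replicate 1, so the groups overlapped, and the fold change of −0.49 ± 0.18 (SE) did not pass (adjusted p = 0.0781, edgeR, 0.000587 to 0.259 over the alternatives). Without control replicate 1, Pdk4 passed at −0.62 (adjusted p = 0.0353). Pdk2 had 447, 433 and 425 CPM in Myf5Cre-Pcyt2 libraries, against 509, 571 and 504 CPM in controls, without overlap and without passing (−0.28, adjusted p = 0.0662, edgeR). Pdk1, a hypoxia-responsive kinase, was at −0.11 (adjusted p = 0.454, edgeR), with a 95% interval of −0.34 to 0.11.

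On the phosphatase side, Pdpr, the regulatory subunit, had 106, 88.2 and 109.6 CPM in Myf5Cre-Pcyt2 libraries, against 114, 146 and 136 CPM in controls, and fell with −0.38 ± 0.12 (SE, adjusted p = 0.0459, edgeR). The catalytic subunits did not pass. Pdp1, the calcium-stimulated form of muscle, had 84.4, 55.1 and 76.0 CPM in Myf5Cre-Pcyt2 libraries, against 79.2, 86.0 and 78.9 CPM in controls. Pdp2 averaged 9.32 ± 0.646 CPM in Myf5Cre-Pcyt2 muscle and 11.7 ± 1.15 CPM in control muscle (SD, n = 3 each; adjusted p = 0.0810, edgeR). Pdpr sits just inside the threshold, and its call was lost in 8 of 17 alternatives.

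Pcx, pyruvate carboxylase, which supplies oxaloacetate and is most active in liver, kidney and fat, varied most among controls. It had 16.4, 17.4 and 21.5 CPM in Myf5Cre-Pcyt2 libraries, against 37.3, 18.6 and 23.5 CPM in controls. Control replicate 1 alone stood high, and the fold change of −0.52 ± 0.21 (SE, adjusted p = 0.113, edgeR) became −0.18 (adjusted p = 0.384) without it and −0.72 (adjusted p = 0.0440) without control replicate 2. Among adipocyte markers, Ucp1, the uncoupling protein of brown fat, had 154, 165 and 154 counts in Myf5Cre-Pcyt2 libraries, against 1427, 31 and 533 counts in controls. Among controls the CPM of Ucp1 and Pcx ran in the same order, and among Myf5Cre-Pcyt2 libraries they did not. Pdk4 was highest in control replicate 2, where Ucp1 was lowest. The adjusted p of Ucp1, 0.0660 (edgeR), was the smallest of the 6 adipocyte markers. These markers summed to 424 to 485 CPM in Myf5Cre-Pcyt2 libraries and 308 to 850 CPM in controls. Their part in the Pcx and Pdk4 values was not tested.

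**Figure D2:**
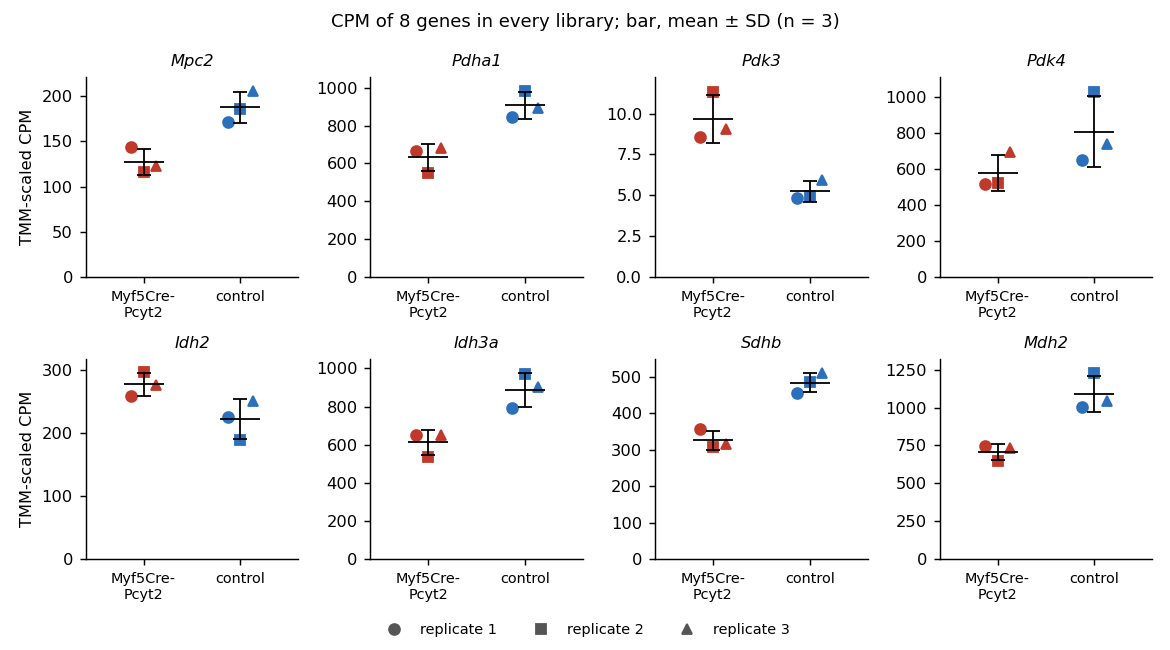
TMM-scaled CPM (y axis, from 0) of 8 genes in every library, with Myf5Cre-Pcyt2 on the left and control on the right, a marker shape for each replicate number, and bars for mean ± SD of 3 libraries. In Mpc2, Pdha1, Idh3a, Sdhb and Mdh2 the Myf5Cre-Pcyt2 points lie below all controls, in Pdk3 and Idh2 above them, and in Pdk4 the groups overlap.

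From citrate to 2-oxoglutarate, 4 of 5 genes fell and Idh2 was the exception in direction. Cs, citrate synthase, had 928, 811 and 862 CPM in Myf5Cre-Pcyt2 libraries, against 1056, 1213 and 1088 CPM in controls (−0.37 ± 0.11 SE, adjusted p = 0.0422, edgeR). The groups did not overlap, though the call was lost in 8 of 17 alternatives. The subunits of the NAD-linked isocitrate dehydrogenase, the regulated enzyme of this step, all fell. Idh3a, its catalytic subunit, had 650.4, 537 and 653 CPM in Myf5Cre-Pcyt2 libraries, against 792, 969 and 900.4 CPM in controls (−0.53 ± 0.12 SE, adjusted p = 0.0154, edgeR). Idh3b and Idh3g, the other subunits, fell with −0.43 ± 0.10 and −0.47 ± 0.09 (SE, adjusted p = 0.0152 and 0.00811, edgeR).

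Idh2, the NADP-linked mitochondrial isocitrate dehydrogenase, which makes NADPH, had 259, 296 and 275 CPM in Myf5Cre-Pcyt2 libraries, against 225, 188 and 251 CPM in controls. Its fold change of 0.32 ± 0.12 (SE) did not pass (adjusted p = 0.0747, edgeR, 0.0234 to 0.228 over the alternatives), although the groups did not overlap. Idh2 counts were 28.4%, 35.5% and 29.6% of the sum of Idh2 and Idh3a in Myf5Cre-Pcyt2 libraries, against 22.1%, 16.3% and 21.8% in controls. This ratio does not depend on the scaling between libraries, and it was chosen after the values were seen.

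From 2-oxoglutarate to succinate, 3 of 5 genes fell. Ogdh and Dlst are the E1 and E2 enzymes of the 2-oxoglutarate dehydrogenase complex. Ogdh averaged 850.3 ± 71.2 CPM in Myf5Cre-Pcyt2 muscle and 1068 ± 148 CPM in control muscle (SD, n = 3 each) and did not pass (−0.33, adjusted p = 0.0954, edgeR). Dlst fell to 434 ± 18.4 CPM in Myf5Cre-Pcyt2 muscle, against 539 ± 37.9 CPM in control muscle (SD, n = 3 each), at the edge of the threshold (−0.31 ± 0.10 SE, adjusted p = 0.0496, edgeR). Succinyl-CoA ligase pairs the common alpha subunit Suclg1 with either Sucla2, which gives the ATP-forming enzyme, or Suclg2, which gives the GTP-forming one. Suclg2 had 24.8, 21.7 and 23.9 CPM in Myf5Cre-Pcyt2 libraries, against 33.9, 34.9 and 31.6 CPM in controls. It had the smallest adjusted p of the 34 genes (−0.51 ± 0.09 SE, adjusted p = 0.00547, edgeR), but 16.0% of its exon words also occur in the pseudogene Gm15163, which had 4 to 12 counts per library. Sucla2 fell with −0.47 ± 0.11 (SE, adjusted p = 0.0178, edgeR), and Suclg1 at −0.32 ± 0.10 just missed (adjusted p = 0.0530, edgeR).

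Succinate dehydrogenase, which is also complex II of the respiratory chain, fell most at its iron-sulfur subunit. Sdhb had 356, 306 and 316 CPM in Myf5Cre-Pcyt2 libraries, against 456, 485 and 511 CPM in controls. The lowest control lay well above the highest Myf5Cre-Pcyt2 library, and Sdhb fell with −0.57 ± 0.10 (SE, adjusted p = 0.00575, edgeR). Sdhc, a membrane anchor, fell with −0.51 ± 0.11 (SE, adjusted p = 0.0134, edgeR). Sdha, the flavoprotein, had 721, 811 and 717 CPM in Myf5Cre-Pcyt2 libraries, against 981, 961 and 889.6 CPM in controls. It missed the threshold (−0.33, adjusted p = 0.0516, edgeR), as did the other anchor, Sdhd (−0.33, adjusted p = 0.0689, edgeR), while the groups did not overlap in either gene. The 95% intervals of the 4 subunits, from −0.79 to −0.35 for Sdhb and from −0.59 to −0.08 for Sdhd, overlapped. Whether the subunits changed unequally was not tested.

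Sdhc had no promoter in the RefSeq table. The promoters of Sdha, Sdhb, Sdhd and 2 other genes are printed. They were picked because they include those of the genes with the largest fall at complex II and the only rise, and because 3 of them hold a searched motif. They are the 250 bases before the RefSeq start on GRCm38.p6, on the gene's strand, 5′ to 3′, with motif matches in capitals: Sdha at chr13:74350241-74350490 (−), Sdhb at chr4:140961021-140961270 (+), Sdhd at chr9:50603850-50604099 (−), Pdk3 at chrX:93832151-93832400 (−) and Got1, a shuttle enzyme described below, at chr19:43524606-43524855 (−).
Sdha: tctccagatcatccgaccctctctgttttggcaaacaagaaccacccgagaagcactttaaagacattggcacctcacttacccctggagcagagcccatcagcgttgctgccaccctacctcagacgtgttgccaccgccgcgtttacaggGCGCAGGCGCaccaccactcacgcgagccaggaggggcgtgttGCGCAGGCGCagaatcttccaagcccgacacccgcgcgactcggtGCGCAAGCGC
Sdhb: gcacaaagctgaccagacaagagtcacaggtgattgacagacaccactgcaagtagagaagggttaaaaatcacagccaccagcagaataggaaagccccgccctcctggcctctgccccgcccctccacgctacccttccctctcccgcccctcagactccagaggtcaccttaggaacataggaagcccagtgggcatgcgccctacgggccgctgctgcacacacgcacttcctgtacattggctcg
Sdhd: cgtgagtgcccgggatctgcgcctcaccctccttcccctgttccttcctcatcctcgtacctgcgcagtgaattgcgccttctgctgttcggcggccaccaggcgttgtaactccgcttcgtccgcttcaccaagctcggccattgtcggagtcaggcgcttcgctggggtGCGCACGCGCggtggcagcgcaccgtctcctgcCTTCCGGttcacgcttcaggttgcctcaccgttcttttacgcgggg
Pdk3: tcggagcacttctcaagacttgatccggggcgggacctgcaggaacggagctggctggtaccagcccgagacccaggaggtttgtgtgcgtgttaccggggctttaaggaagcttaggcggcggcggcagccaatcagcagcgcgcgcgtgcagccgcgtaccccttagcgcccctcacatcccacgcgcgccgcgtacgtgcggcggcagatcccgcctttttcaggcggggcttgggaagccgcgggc
Got1: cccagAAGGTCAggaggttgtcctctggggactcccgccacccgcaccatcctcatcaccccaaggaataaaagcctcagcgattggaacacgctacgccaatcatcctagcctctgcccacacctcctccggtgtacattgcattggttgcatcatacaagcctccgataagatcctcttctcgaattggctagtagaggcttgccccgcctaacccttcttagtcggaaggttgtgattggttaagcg
For Sdhd, the bases after the RefSeq start used were not found in the gene's GENCODE M21 transcripts. For the other printed genes they were found, which does not show that a transcript starts there. By position, the ends of the Sdha, Sdhb and Pdk3 windows lie inside the gene as annotated in GENCODE M21. The last capitals of Sdha lie in that part. The NRF1 motif, which is GCGCA and GCGC set apart by 1 base of any kind, was searched on both strands and occurs 3 times in Sdha and once in Sdhd. Over the 31 of the 34 genes with a promoter in the RefSeq table, 3 held this motif (Sdha, Sdhd and Sucla2, 9.68%), against 4.23% of 27025 genes. The core of the GABP site, CCGGAAG, was in Sdhd, Mpc1 and Idh3g (9.68%, against 7.83% of genes), and its capitals in Sdhd show the reverse strand. The half-site of the oestrogen-related receptors, AAGGTCA, was in Got1 alone (3.23%, against 4.70%), and the E-box CACGTG was in Ogdh, Pcx, Pdk2, Pdp2 and Pdpr (16.1%, against 6.86%). Sdhb and Pdk3 held none of these letters in this window. In the printed sequences no matches overlap, and a match is a description of letters, not of binding.

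Past succinate, Fh1, fumarase, fell with −0.40 ± 0.10 (SE, adjusted p = 0.0201, edgeR). Mdh2, the mitochondrial malate dehydrogenase that closes the cycle, had the largest fall of the 34 genes. It had 743, 648 and 736 CPM in Myf5Cre-Pcyt2 libraries, against 1004, 1226 and 1039.6 CPM in controls. Its Myf5Cre-Pcyt2 mean was 65.1% of its control mean by the fit (−0.62 ± 0.12 SE, adjusted p = 0.00769, edgeR), and it passed in all 17 alternatives (adjusted p up to 0.0443).

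In the malate-aspartate shuttle, Got1 and Got2, the cytosolic and mitochondrial aspartate aminotransferases, fell, and Mdh1, the cytosolic malate dehydrogenase, did not pass. Got1 had 212, 184 and 223 CPM in Myf5Cre-Pcyt2 libraries, against 247, 346 and 325 CPM in controls (−0.57 ± 0.13 SE, adjusted p = 0.0162, edgeR). The spread among controls was wide, and the call was lost without control replicate 2 and without Myf5Cre-Pcyt2 replicate 2. Got2 fell with −0.42 ± 0.10 (SE, adjusted p = 0.0169, edgeR), and 16.8% of its exon words also occur in Got2-ps1, which had 28 to 36 counts. Mdh1 averaged 537 ± 37.5 CPM in Myf5Cre-Pcyt2 muscle and 658 ± 61.6 CPM in control muscle (SD, n = 3 each; −0.29, adjusted p = 0.0842, edgeR). Mpc1, Pdha1, Pdpr, Idh3b, Mdh1 and Got2 overlap exons of a gene on the opposite strand, and the strand setting of the counting is not given. The largest neighbour was Nop56 beside Idh3b, which was higher where Idh3b was lower, with 676, 647 and 722 counts in Myf5Cre-Pcyt2 libraries and 512, 460 and 474 counts in controls.

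Per kilobase of exon, the most abundant of the 34 genes in Myf5Cre-Pcyt2 muscle were Sdhd, Mdh1 and Mdh2, with 244, 209 and 199 CPM per kilobase, against 307 ± 39.98, 256 ± 24.0 and 306 ± 33.5 in control muscle (SD, n = 3). Sdhd and Mdh2 thus differed by less than their spread in controls. The lowest in Myf5Cre-Pcyt2 muscle was Pdp2, at 1.64 against 2.06 ± 0.202 in control muscle (SD, n = 3). In control muscle Pdk3, at 2.05 ± 0.247 (SD, n = 3), and Pdp2 were the lowest and differed by less than their spread. Exon lengths are unions over all annotated transcripts, so these levels depend on the annotation.

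Shares within enzyme pairs and families do not depend on scaling between libraries, and 6 were compared with exact permutation tests, two-sided, for which 3 libraries against 3 allow no p below 0.1. The Mdh1 share of Mdh1 and Mdh2 counts was 43.0%, 43.2% and 43.0% in Myf5Cre-Pcyt2 libraries, against 37.0%, 35.5% and 40.5% in controls. The cytosolic form thus took a larger share in every Myf5Cre-Pcyt2 library than in any control, by 5.39 percentage points on average (exact permutation p = 0.1, adjusted over the 6 shares 0.6). The other 5 shares overlapped between the groups. Suclg2 made up 3.88 ± 0.0492% of Suclg2 and Sucla2 counts in Myf5Cre-Pcyt2 muscle and 4.02 ± 0.509% in control muscle (SD, n = 3 each; exact permutation p = 0.7). Pdk4 made up 51.6 ± 4.41% of kinase counts in Myf5Cre-Pcyt2 muscle and 55.6 ± 4.29% in control muscle (exact permutation p = 0.3, n = 3 each). Got1 made up 51.9 ± 0.812% of Got1 and Got2 in Myf5Cre-Pcyt2 muscle and 54.3 ± 2.77% in control muscle (exact permutation p = 0.3, n = 3 each). The shares of Pdk2 and Pdp1 gave exact permutation p-values of 0.5 and 0.7. Exact binomial 95% intervals of single libraries were at most 1.84 percentage points to either side, and they cover counting error only.

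**Figure D3:**
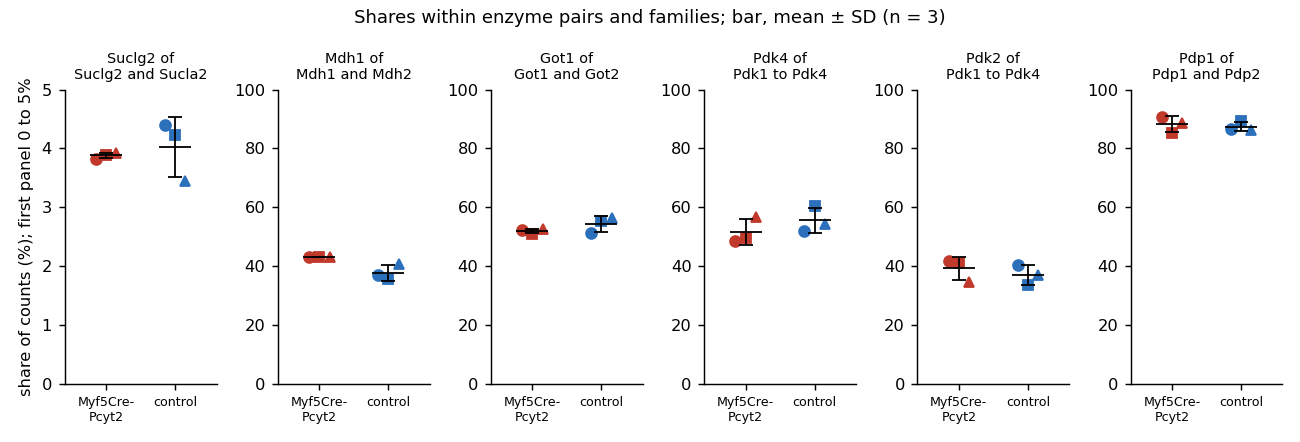
Share of counts (y axis, %) of a gene within its enzyme pair or kinase family in every library, with Myf5Cre-Pcyt2 on the left and control on the right of each panel and bars for mean ± SD of 3 libraries. Only in the Mdh1 panel do the groups not overlap, at about 43.0% to 43.2% in Myf5Cre-Pcyt2 and 35.5% to 40.5% in control.

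The libraries differed in how far the genes moved together. Summed over the 34 genes, the level was 11887, 10628 and 11763 CPM in Myf5Cre-Pcyt2 libraries, against 13978, 16070 and 15247 CPM in controls. Myf5Cre-Pcyt2 replicate 2 was the lowest of all 6 libraries for 26 of the 34 genes, and control replicate 1 was the lowest control for 25. The highest library was control replicate 2 for 15 genes and control replicate 3 for 14. Within a group, the coefficient of variation had a median of 7.85% over the 34 genes in Myf5Cre-Pcyt2 and 8.78% in control.

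Lists of genes beside these enzymes differed in how many members passed. The counts of this and the later lists stand beside 9.59% of all tested genes that fell and 9.02% that rose. Of 8 further TCA and 2-oxoacid enzymes, 1 fell, near the share of all tested genes, and 7 did not pass, with a median of −0.28. All 5 genes of the branched-chain ketoacid dehydrogenase list, a complex built like pyruvate dehydrogenase and sharing Dld, fell, with a median of −0.57. Among them, Dbt, its E2 core, was at −0.67, Bckdk, its kinase, at −0.57, and Ppm1k, its phosphatase, at −0.57 (adjusted p = 0.00922, 0.00629 and 0.0134, edgeR). Of 15 genes for lipoate, thiamine and iron-sulfur cofactors and succinate dehydrogenase assembly, 5 fell and none rose, with a median of −0.18. Bola3, an iron-sulfur factor needed for lipoylated enzymes, fell with −0.65 (adjusted p = 0.00792, edgeR), whereas Lias, lipoate synthase, was at −0.17 and did not pass.

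Of 14 genes of lactate, malate, citrate and alanine handling, 7 fell and none rose. Ldhd, the mitochondrial D-lactate dehydrogenase, had 6.14, 7.99 and 9.61 CPM in Myf5Cre-Pcyt2 libraries, against 16.3, 22.2 and 17.2 CPM in controls (−1.22 ± 0.17 SE, adjusted p = 0.00279, edgeR). This fall was larger than that of any of the 34 genes. Gpt2, mitochondrial alanine aminotransferase, and Slc16a3, the lactate exporter of glycolytic fibres, fell with −0.49 and −0.61 (adjusted p = 0.00641 and 0.0115, edgeR), and Slc16a1, a lactate and pyruvate transporter, was at 0.19 without passing. Of 8 tested carriers and glutamate enzymes beside the cycle, 1 fell, again near the share of all tested genes. It was Slc25a11, the 2-oxoglutarate carrier of the shuttle (−0.34, adjusted p = 0.0356, edgeR).

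The respiratory chain list medians were similar to that of the 34 genes. Of 36 nuclear complex I subunit genes 31 fell, with a median of −0.43, and of 35 tested for complexes III, IV and V 18 fell, with a median of −0.45. In glycolysis 6 of 15 fell and 1 rose (median −0.43), and in fatty acid oxidation 5 of 19 fell and 1 rose (median −0.21). These lists hold genes with low counts, which may not stand for their level. Gapdh of glycolysis had 206, 185 and 191 counts in Myf5Cre-Pcyt2 libraries and 239, 199 and 152 counts in controls. Whether processed copies of such genes affect their counts was not tested. Ndufs5 of complex I had 3, 431 and 109 counts in Myf5Cre-Pcyt2 libraries and 3, 3 and 190 counts in controls. Pgam1, Cox7c and Atp5l had at most 85 counts in any library. Gapdh, Ndufs5, Pgam1, Cox7c and Atp5l, singled out after their values were seen, are in the list counts and medians without having passed the threshold. Pgk1 of glycolysis, picked in the same way, had 687, 666 and 763 counts in Myf5Cre-Pcyt2 libraries and 793, 925 and 772 counts in controls. It is among the 6 that fell (adjusted p = 0.0208, edgeR), and whether copies affect its count was not tested. Among 12 regulators of mitochondrial genes, 4 fell and none rose. Perm1, a muscle coregulator of oxidative genes, had 104, 92.2 and 112 CPM in Myf5Cre-Pcyt2 libraries, against 141, 214 and 181 CPM in controls (−0.80 ± 0.14 SE, adjusted p = 0.00575, edgeR). Esrra and Esrrg, the oestrogen-related receptors alpha and gamma, fell with −0.36 and −0.42 (adjusted p = 0.0163 and 0.0155, edgeR). Ppargc1a, which encodes the coactivator PGC-1 alpha, averaged 42.9 ± 8.30 CPM in Myf5Cre-Pcyt2 muscle and 43.5 ± 2.56 CPM in control muscle (SD, n = 3 each; −0.02, adjusted p = 0.919, edgeR).

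**Figure D4:**
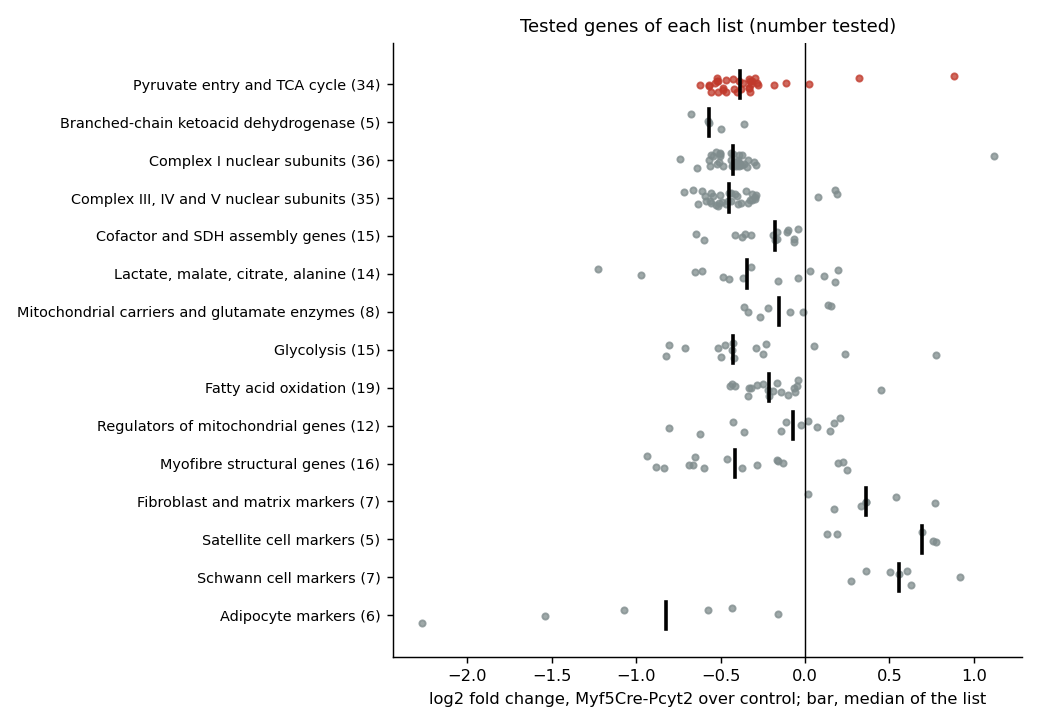
Log2 fold changes (x axis, Myf5Cre-Pcyt2 over control) of the tested genes of each list, with a point a gene and a bar at the list's median. The 34 genes in red have a median of −0.39, beside −0.57 for the branched-chain complex and −0.43 for complex I, while fibroblast, satellite cell and Schwann cell markers lie mostly to the right of 0.

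Cell type markers also changed, the myofibre genes mostly downward and some other lists upward. The 16 myofibre structural genes, which show the tissue as skeletal muscle, summed to between 140621 and 176482 CPM in Myf5Cre-Pcyt2 libraries and between 205979 and 285657 CPM in controls, with 5 lower, none higher and a median of −0.42. Ckm, muscle creatine kinase, had the largest fall of the 16. It averaged 10727 ± 1122 CPM in Myf5Cre-Pcyt2 muscle and 20553 ± 4501 CPM in control muscle (SD, n = 3 each, adjusted p = 0.0123, edgeR). Of the 16 fold changes 13 were negative, and the highest was that of Actn2, at 0.25 without passing (adjusted p = 0.190, edgeR). All 3 Myf5Cre-Pcyt2 libraries lay below all 3 controls in 8 of the 16 genes, against 19.2% of all tested genes. They lay above all 3 controls in 1, Actn2, against 19.9%. Satellite cell markers summed to 168 to 180 CPM in Myf5Cre-Pcyt2 libraries and 118 to 128 CPM in controls (3 of 5 rose). Schwann cell markers summed to 616 to 833 CPM in Myf5Cre-Pcyt2 libraries and 412 to 506 CPM in controls (4 of 7 rose). For fibroblast and matrix markers the sums were 16470 to 18662 CPM in Myf5Cre-Pcyt2 libraries and 11763 to 15483 CPM in controls (2 of 7 tested rose, with Tcf21 at 0 counts in all 6 libraries). These sums lay higher in every Myf5Cre-Pcyt2 library than in any control, which did not hold for every gene in them. Gene by gene it held for 3 of 5 satellite cell, 6 of 7 Schwann cell and 4 of 7 tested fibroblast and matrix markers. Over all tested genes it held for 19.9%. The remaining marker sums overlapped between the groups. They were 760.3 to 860.2 CPM in Myf5Cre-Pcyt2 libraries and 735 to 918 CPM in controls for endothelium (2 of 7 fell), 45.4 to 63.6 CPM in Myf5Cre-Pcyt2 libraries and 44.9 to 50.6 CPM in controls for macrophages and lymphoid cells (of 5 tested, Csf1r had the smallest adjusted p, 0.0911, edgeR), and 260.2 to 358 CPM in Myf5Cre-Pcyt2 libraries and 223 to 332 CPM in controls for red blood cells (1 of 5 tested rose). Their part in the values of the 34 genes was not tested.

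Across 17 alternative settings, Mpc2, Pdk3, Suclg2, Sdhb and Mdh2 passed the threshold every time, and the other 15 called genes missed it at least once. DESeq2's Wald test gave the most calls, with 28 lower and Pdk3 and Idh2 higher. Leaving out Myf5Cre-Pcyt2 replicate 2 gave the fewest, with 6 lower.

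**Figure D5:**
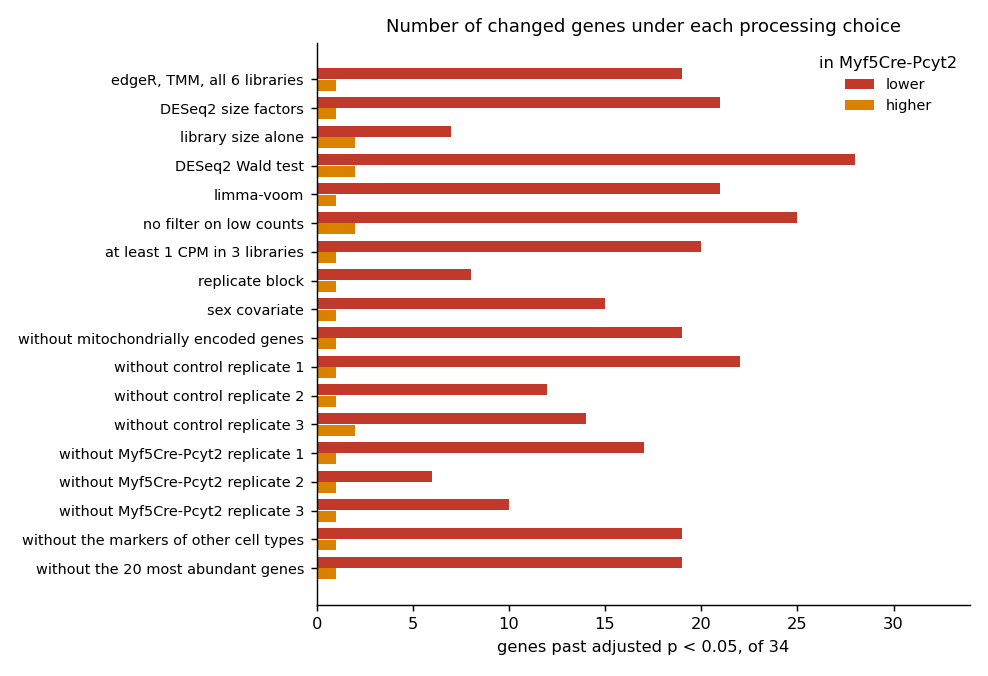
Number of the 34 genes past an adjusted p of 0.05 (x axis) under each processing choice (y axis), with red bars for genes lower and orange bars for genes higher in Myf5Cre-Pcyt2. The number lower runs from 6 without Myf5Cre-Pcyt2 replicate 2 to 28 with DESeq2, and the number higher is 1 or 2 throughout.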

How the data were processed

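The authors deposited whole-number read counts per Ensembl gene, and the submitters' processing notes name featureCounts, Subread 1.6.2, Trim Galore 0.5.0, Bowtie2 2.3.4.1 and the build GRCm38/mm10, with neither role nor order. The annotation release, the strand setting and the handling of multi-mapping reads were not given in the sources used here. Muscle was frozen and RNA purified on columns, per the labels' protocols. Whether libraries come from separate litters is not in the labels, and p-values then reflect only how these libraries vary, which may be technical. Counts of no replicate pair agreed within sampling noise.

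Symbols and positions came from GENCODE M21, and promoters from RefSeq on GRCm38.p6. Of 54532 genes, 26363 had 0 counts in every library. edgeR 4.0.16 in R 4.3.3 was used with filterByExpr, TMM factors and the two-sided quasi-likelihood test, with p-values adjusted by Benjamini-Hochberg over 14715 genes and a threshold of 0.05. The common biological coefficient of variation was 11.6%. Errors of log2 fold changes are standard errors from this fit. DESeq2 1.42.0, limma 3.58.1 (voom), other scalings and filters, a replicate block, a sex covariate and leaving out each library were alternatives. Shares were compared with SciPy 1.17.1 in Python 3.11.15 with pandas 2.3.3, and figures drawn with matplotlib 3.10.9. The fit was tested on simulated data.

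All 34 genes are named, and of each other list at most the 3 genes with the smallest p that passed and 1 that did not. Ucp1, Nop56, Tcf21, Nnt, Eno3 and Pgk1 were named after their values were seen. Some genes of these lists are not reported here. The genes, lists and rules were chosen with earlier results of these data known.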

Additional observations from a re-analysis of the deposited data

How the results depend on the processing

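Scaling by library size alone left 7 of the 34 genes lower and 2 higher, with a median of −0.18. Of all tested genes, 499 were then lower and 3225 higher, Pdk1 stood at 0.094 and Pdp1 at 0.024. The median of all genes was 0.21 under this scaling and −0.002 under TMM. Which of the 2 scalings lies nearer to the true change was not tested. DESeq2's Wald test and the fit without a filter on low counts also gave 2 higher. Without each library in turn, the number of the 34 genes lower ranged from 6 to 22 and higher from 1 to 2, and over all genes lower from 424 to 1448 and higher from 422 to 1337. Mpc1 ranged from −0.24 to 0.24 over the left-out libraries and was −0.0036 with a sex covariate. Over the left-out libraries, the difference in the Suclg2 share, Myf5Cre-Pcyt2 minus control, ranged from −0.434 to 0.0437 percentage points and that in the Pdp1 share from −0.489 to 2.26. The causes were not tested.

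With the replicate number as a block, 8 of the 34 genes were lower and 1 higher, and 866 genes lower and 865 higher of all tested. The labels do not say whether the numbers pair the libraries. Deviations of same-numbered libraries correlated at −0.11, −0.17 and 0.02 across 14715 genes, and not every library correlated best with its own number. With 3 libraries a group, these values cannot show whether the libraries were paired. Over all single-gene results and alternatives, 479 kept direction and side of the threshold, 65 lost the call, 29 gained it and 5 changed sign. The alternatives without marker genes and without the 20 most abundant genes were chosen after seeing the data. Leaving out so few genes bears on the scaling and not on cell composition. Genes near 10 CPM, such as Mpc1, Pdk3 and Pdp2, rest on the fewest counts, and 3 libraries a group limit every test.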

Other observations

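Nnt, the mitochondrial transhydrogenase that makes NADPH beside Idh2, was listed with the carriers next to the cycle and had too few counts to be tested. It had 7, 18 and 7 counts in Myf5Cre-Pcyt2 libraries, against 5, 3 and 7 counts in controls. C57BL/6J mice carry a deletion in Nnt, the strain of these pups is not given in the labels used here, and the relation was not tested. Nnt was singled out after its values were seen.

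Among genes beside pyruvate, Eno1, the enolase found in most tissues, rose with 0.77 (adjusted p = 0.00498, edgeR). Eno3, the enolase of muscle, fell with −0.71 (adjusted p = 0.0110, edgeR). The count of Eno1 is uncertain, and whether the copy Eno1b affects it was not tested. In fatty acid oxidation, Cpt1a, the carnitine palmitoyltransferase typical of liver, rose with 0.45 (adjusted p = 0.0143, edgeR), while Acadvl, the very-long-chain acyl-CoA dehydrogenase, fell with −0.44 (adjusted p = 0.0124, edgeR).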
